A study of Mus musculus with 8 samples.

Results

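Pericyte and smooth muscle contractile genes were followed in whole retinas of mouse pups at postnatal day 8. The set held 33 genes, taken as every probe set whose platform annotation gave exactly 1 gene symbol that was a listed gene, and all 33 were measured, by 69 of 34945 such probe sets. Of these, 14 genes (28 probe sets) were pericyte markers and 19 genes (41 probe sets) were the regulators Myocd and Srf with 17 contractile genes. The 4 Z/Edn2 arrays came from pups that carried both the Cre-activated Edn2 transgene Z/Edn2 and Six3-Cre, a Cre driver of the developing retina, and the 4 Control arrays from pups with Six3-Cre and no Z/Edn2. The fathers were Six3-Cre; Six3-Cre, so every pup carried the driver, and the transgene was read as LacZ activity in tail tissue. All pups were of a mixed background, mainly C57BL/6 and 129, and each array pooled the retinas of 2 to 3 pups. The labels call the arrays biological replicates, and the p-values measure the spread between these 8 pools.

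Pericytes are the cells that wrap the capillaries, and in retina they are unusually dense. They are recruited to new vessels by platelet-derived growth factor from the endothelium, acting on the receptor encoded by Pdgfrb. Smooth muscle cells wrap the arterioles and carry a fuller contractile apparatus, whose genes are switched on by serum response factor (Srf) together with its coactivator myocardin (Myocd). Endothelin 2, the product of Edn2, is a secreted peptide that contracts vascular smooth muscle through endothelin receptors.

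Values are log2 signals per probe set, so a difference of 1 is a doubling. Array medians lay between 6.48 and 6.60, the highest being that of Z/Edn2 3. In that array the 9096 dimmer genes (mean level below the middle of all 18193) lay a median of 0.17 above the Control mean, against 0.01 to 0.07 in the other Z/Edn2 arrays. The gap between the 3′ and 5′ actin control probe sets was narrowest in Control 1 (0.65) and Z/Edn2 1 (0.56), against 1.06 to 1.42 elsewhere. Of 8 listed retina markers 6 had usable probe sets, at a median Control level of 12.7, and all 6 had negative log2 fold changes that did not pass, with a median of −0.12. The Edn2 probe set went from 3.98 to 4.16, a log2 fold change of 0.18 that did not pass, and whether it reads the transgene's RNA is not known here. Over all probe sets, 31 (0.0887%) were higher and 9 (0.0258%) lower in Z/Edn2 by limma at an adjusted p under 0.05. With the replicate number as a block the counts were 76 (0.217%) and 18 (0.0515%).

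Among the 69 probe sets a single one passed, the brighter of the 2 of Myocd, which was 2.01-fold higher in Z/Edn2 retina. The other Myocd probe set was 1.11-fold higher and did not pass. The call was lost in 5 of 8 omissions of a single array. Of the 28 pericyte marker probe sets, 0 passed. Of the 41 probe sets of regulators and contractile genes, 1 was higher and 0 were lower. With the replicate block the counts were again 0 of 28 and 1 of 41. Without Z/Edn2 3 they were also 0 and 1, where 0.0515% of all probe sets were higher and 0.0114% lower. At an unadjusted p under 0.05, 2 pericyte probe sets were higher and 1 lower, and 8 contractile or regulator probe sets were higher and 0 lower, where 2.84% of all probe sets were higher and 1.2% lower. The remaining 67 probe sets of genes other than Myocd had adjusted p-values of 0.348 or above, and 0.221 or above with the block. In bulk retina, changes in mural cell number, in RNA per mural cell and in other cells that express these genes cannot be told apart.

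**Figure D1:**
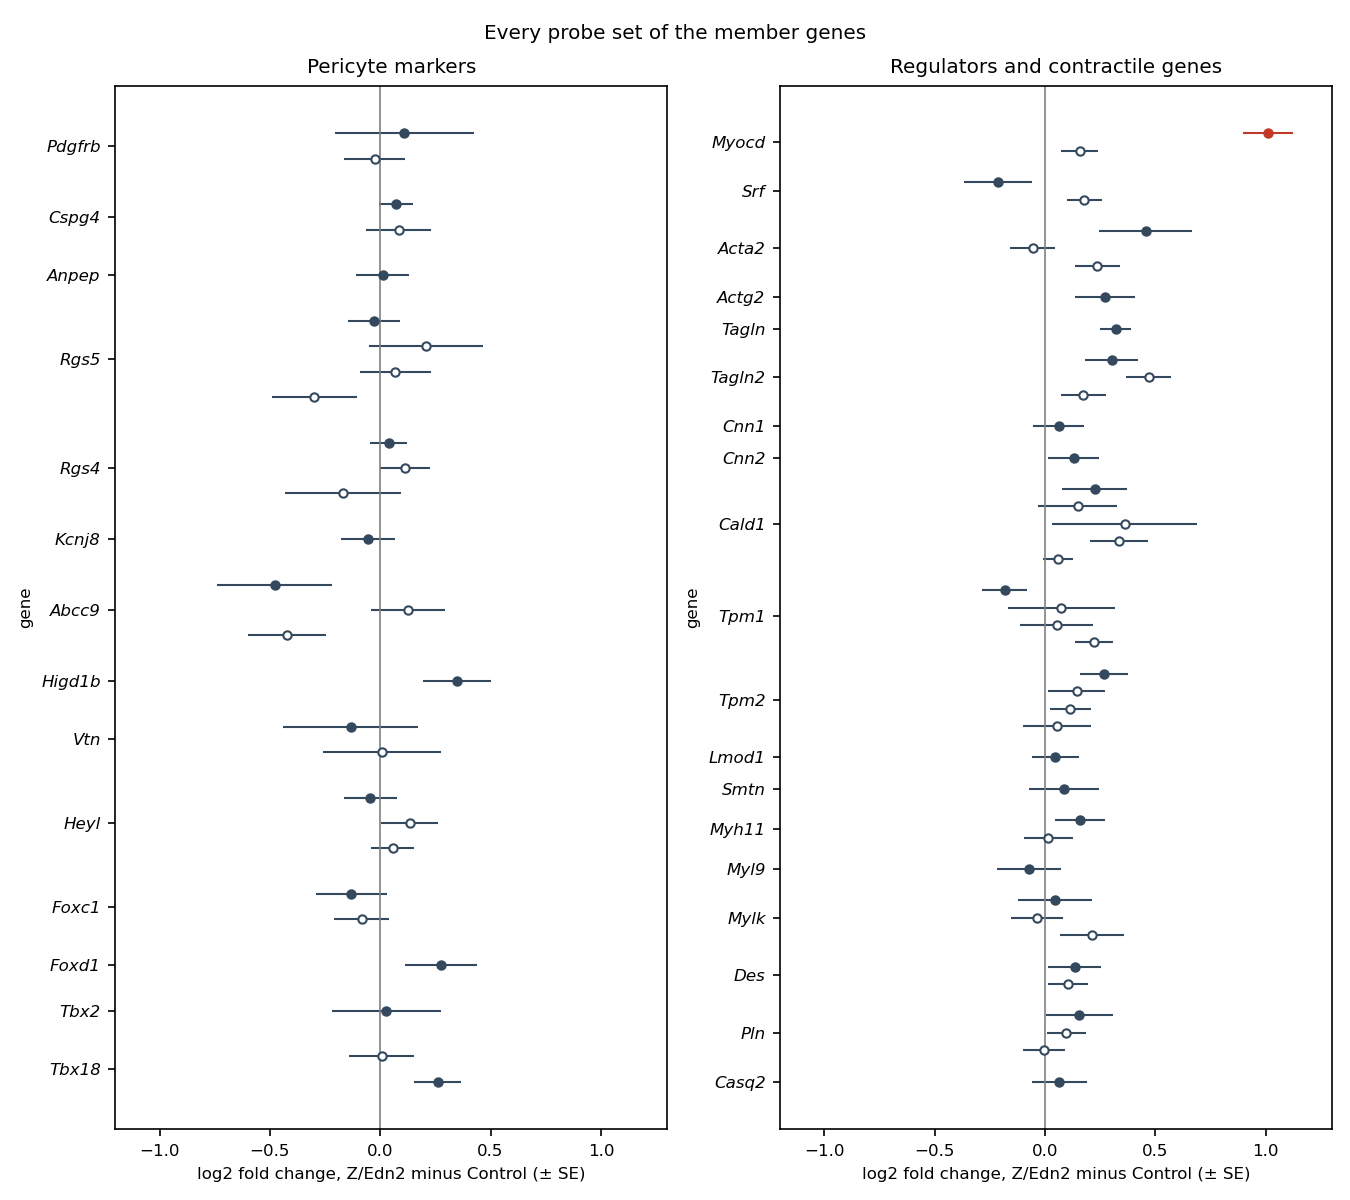
Log2 fold change (Z/Edn2 minus Control, ± limma SE, n = 4 arrays a group) of all 69 probe sets, grouped by gene, with filled points for the probe set of highest mean in each gene and red for the one at an adjusted p under 0.05. Myocd stands at 1.01 in its brighter probe set, pericyte markers lie on both sides of 0, and 35 of the 41 regulator and contractile probe sets lie above 0, against 56.3% of all probe sets.

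Myocd, the coactivator that drives smooth muscle genes through Srf, was read by 2 probe sets. The brighter one was at 5.43, 5.40, 5.68 and 5.39 in Control 1 to 4 and at 6.33, 6.50, 6.75 and 6.37 in Z/Edn2 1 to 4. Every Z/Edn2 array lay above every Control array, and the gap between the groups was wider than the range within either. Its log2 fold change was 1.01 ± 0.114 (SE), with means of 5.48 ± 0.135 and 6.49 ± 0.188 (SD, n = 4 each). The limma adjusted p was 0.0147, and 0.00279 once the replicate number was a block. The authors' deposited table, by a test it does not name, gave this probe set an unadjusted p of 0.000124. That of the Tagln probe set was smaller there (4.04e-05). Its Control level was low, with 34.7% of probe sets below it. The call depended on which arrays were left out: it was lost in 5 of 8 omissions of a single array (Control 1, 2 or 4, Z/Edn2 2 or 4), and over the 8 the limma adjusted p lay between 0.0157 and 0.0826 while the log2 fold change stayed between 0.92 and 1.08. Leaving out a same-numbered pair kept the call for pairs 1 (limma adjusted p = 0.0384) and 3 (0.0364) and lost it for pairs 2 (0.231) and 4 (0.317). Leaving out Control 1, Z/Edn2 1 and Z/Edn2 3 together gave 0.95 (adjusted p = 0.0489). The dimmer Myocd probe set was at 4.51, 4.32, 4.35 and 4.40 in Control and at 4.69, 4.54, 4.49 and 4.48 in Z/Edn2. Its groups overlapped, although the Z/Edn2 value was the higher in 4 of 4 same-numbered pairs, and its log2 fold change of 0.16 ± 0.0832 did not pass (unadjusted p = 0.0906). As the mean of both probe sets the gene was at 0.58 (adjusted p = 0.0101).

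Srf, the DNA-binding partner of myocardin, was read by 2 probe sets with log2 fold changes of opposite sign. The brighter one was at 7.82, 7.90, 8.03 and 7.99 in Control and at 7.67, 7.89, 7.28 and 8.05 in Z/Edn2, with the lowest value in Z/Edn2 3. Its log2 fold change was −0.21 ± 0.153, but −0.06 without Z/Edn2 3 and −0.002 without Control 1 and Z/Edn2 1 as well. The other was at 6.82 to 6.91 in Control and at 6.92 to 7.16 in Z/Edn2, without overlap, at 0.18 ± 0.0792. Neither passed (unadjusted p = 0.197 and 0.0511), so these data give no direction for Srf. The suffix of the brighter probe set (_s_at) marks probes that can match more than 1 transcript.

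**Figure D2:**
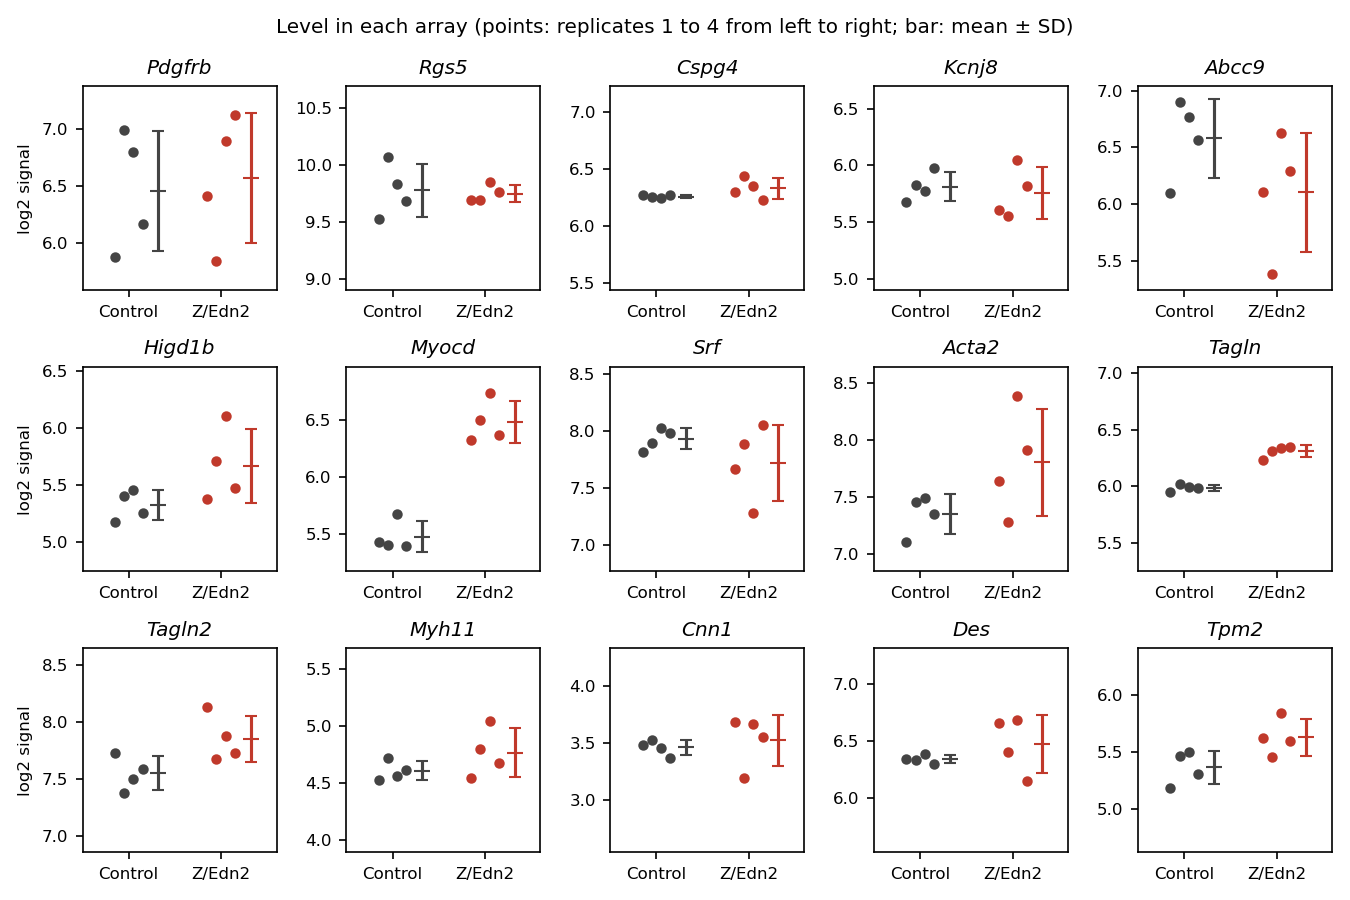
Log2 signal of 15 member genes (probe set of highest mean) in each array, with points for replicates 1 to 4 and the mean ± SD beside them; every panel spans an equal log2 range. Myocd and Tagln are higher in Z/Edn2 without overlap, as were 2.67% of all genes. Every other panel overlaps, both of pericyte markers and of regulators and contractile genes.

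Serum response factor binds the CArG box, a motif of 10 bases whose general pattern, though not each single box, reads the same on both strands. To show which member promoters carry it, the 250 bases before the RefSeq start of each gene (GRCm38.p6) were searched. An exact box stood in 0 of 10 pericyte marker promoters and in 3 of 16 promoters of regulators and contractile genes, against 1.47% of 32851 promoters of all genes. Boxes with up to 1 base changed stood in 3 of 10, 8 of 16 and 18.6%. The contractile genes were listed as genes under Myocd and Srf, so a higher share of boxes could come from that choice. The exact ones were in Srf itself (2 boxes, starting 82 and 62 bases before the start), Cnn2 (56 bases) and Myl9 (161 bases). Acta2, the classic smooth muscle actin, had 2 boxes with 1 base changed, 84 and 34 bases before its start. These 4 stretches are printed 5′ to 3′ on the gene's strand with the boxes in capitals, for Srf at chr17:46556163-46556412 (minus strand), Cnn2 at chr10:79988350-79988599 (plus), Myl9 at chr2:156775214-156775463 (plus) and Acta2 at chr19:34255374-34255623 (minus). For Acta2 the capitals mark the boxes with 1 base changed.
Srf: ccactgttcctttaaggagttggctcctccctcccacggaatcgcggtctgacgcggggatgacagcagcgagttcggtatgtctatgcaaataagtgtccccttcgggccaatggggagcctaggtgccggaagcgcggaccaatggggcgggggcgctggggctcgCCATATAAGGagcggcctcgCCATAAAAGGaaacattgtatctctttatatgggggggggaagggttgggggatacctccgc
Cnn2: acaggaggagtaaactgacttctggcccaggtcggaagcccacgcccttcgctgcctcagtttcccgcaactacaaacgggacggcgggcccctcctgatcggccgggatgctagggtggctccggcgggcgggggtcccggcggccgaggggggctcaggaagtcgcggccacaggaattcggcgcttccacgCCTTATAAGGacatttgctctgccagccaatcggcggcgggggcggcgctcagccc
Myl9: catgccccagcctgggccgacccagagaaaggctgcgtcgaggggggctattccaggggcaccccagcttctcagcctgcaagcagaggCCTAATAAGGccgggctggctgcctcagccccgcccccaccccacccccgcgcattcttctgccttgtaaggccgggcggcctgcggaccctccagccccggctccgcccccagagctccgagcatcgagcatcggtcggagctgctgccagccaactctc
Acta2: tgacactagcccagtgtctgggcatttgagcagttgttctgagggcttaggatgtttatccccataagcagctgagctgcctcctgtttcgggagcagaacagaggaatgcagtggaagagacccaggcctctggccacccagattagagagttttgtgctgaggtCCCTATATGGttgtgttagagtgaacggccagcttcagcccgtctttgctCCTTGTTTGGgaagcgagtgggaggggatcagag
A match is a description of the sequence, not a measured site. The genes with an exact box had log2 fold changes of −0.21 (Srf, with 0.18 in its other probe set), 0.13 (Cnn2) and −0.07 (Myl9), none past the test. Acta2 had 0.46, 0.24 and −0.06 in its 3 probe sets, none past the test either. Myocd, Tagln, Myh11, Actg2, Pdgfrb, Higd1b, Heyl and Tbx2 were not searched.

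The contractile genes besides Myocd had mostly small positive differences that did not pass. Taking the probe set of highest mean, 16 of the 19 regulators and contractile genes had log2 fold changes above 0, with a median of 0.13 and a middle range of 0.05 to 0.27. Among all 18193 genes 54.8% were above 0, and the median was 0.01. Without Myocd, 15 of 18 were above 0, with the same rounded median of 0.13. No overlap between groups was seen for 6 of the 41 probe sets, all higher (2.32% of all probe sets), and for 0 of the 28 pericyte probe sets in either direction (0.813% of all were lower). By 1 probe set a gene, 2 of the 19 genes, Myocd and Tagln, did not overlap, where 2.67% of all genes were so higher and 1.01% lower. The Z/Edn2 value was the higher in 4 of 4 same-numbered pairs for 6 of the 19 and for 2 of the 14 pericyte genes, against 11.6% of all genes. Level moved with the direction of change: 13 of the 19 were among the dimmer genes, of which 72.2% were above 0 with a median of 0.06, against 37.3% and −0.03 for the brighter genes. The part of this shift in the contractile values was not tested. Of the pericyte genes, 6 of the 10 dimmer and 2 of the 4 brighter ones were above 0, with medians of 0.04 and −0.0003. Of the contractile genes, 12 of the 13 dimmer and 4 of the 6 brighter ones were above 0, both with a median of 0.13. Without Z/Edn2 3 the median was 0.08 and 14 of 19 were above 0, and leaving out Control 1 and Z/Edn2 1 as well gave 0.05 and 12 of 19. With array medians made equal it was 0.11, and 16 of 19 were still above 0.

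Of the smooth muscle actins, neither passed. Acta2, which marks smooth muscle and activated pericytes, was at 7.10, 7.45, 7.49 and 7.34 in Control and at 7.64, 7.28, 8.39 and 7.91 in Z/Edn2. The Z/Edn2 value was the higher in 3 of 4 pairs, but Z/Edn2 2 lay inside the Control range and Z/Edn2 3 alone reached 8.39. The log2 fold change was 0.46 ± 0.210 (unadjusted p = 0.0566). It was 0.26 without Z/Edn2 3, and 0.16 without Control 1 and Z/Edn2 1 as well. A dim Acta2 probe set, with 3.2% of probe sets below it, was at 2.72, 2.81, 3.08 and 3.09 in Control and at 3.20, 3.19, 3.17 and 3.09 in Z/Edn2, with Control 4 and Z/Edn2 4 equal to 2 decimals (log2 fold change 0.24 ± 0.102, unadjusted p = 0.0436), and a further dim one had −0.06. Actg2, the enteric smooth muscle actin, stood at a Control mean of 3.38 and a log2 fold change of 0.27 ± 0.135. Actin genes are close copies of one another, and the brighter Acta2 probe set carries the suffix _s_at, so its signal may include related actins.

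Tagln and Tagln2 encode transgelins, which bind actin filaments. Tagln (SM22) was at 5.95, 6.02, 5.99 and 5.99 in Control and at 6.23, 6.31, 6.34 and 6.35 in Z/Edn2. The groups did not overlap, and the SD was 0.0271 in Control and 0.0537 in Z/Edn2 (n = 4 each). Its log2 fold change of 0.32 ± 0.0707 had an unadjusted p of 0.00126 but did not pass over all probe sets (limma adjusted p = 0.362, and 0.236 with the block). Over omissions of 1 array or 1 pair the Tagln log2 fold change stayed between 0.31 and 0.35. The authors' deposited table, by its unnamed test, gave Tagln an unadjusted p of 4.04e-05. Tagln2, a transgelin found in many cell types besides muscle, was at 7.73, 7.38, 7.50 and 7.59 in Control and at 8.13, 7.68, 7.87 and 7.73 in Z/Edn2 by its brightest probe set, which overlapped (log2 fold change 0.30 ± 0.120, unadjusted p = 0.0319). A second Tagln2 probe set was at 6.75, 6.69, 7.03 and 6.96 against 7.28, 7.45, 7.38 and 7.21, without overlap (0.47 ± 0.102, unadjusted p = 0.00116, adjusted p = 0.348). That probe set has the suffix _x_at, which marks probes that may cross-hybridise. The third Tagln2 probe set, at the bottom of the scale with 0.65% of probe sets below it, had 0.17 ± 0.103.

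Of the other thin filament genes, Cald1 and Tpm2 had positive values in each probe set and Tpm1 had both signs, none past the test. Cald1, caldesmon, which restrains actomyosin, had 5 probe sets with log2 fold changes of 0.06 to 0.36. The brightest had 0.22 ± 0.148 (limma unadjusted p = 0.162). The one at an unadjusted p under 0.05 was at 6.44, 6.60, 6.64 and 6.54 in Control and at 6.59, 6.90, 7.23 and 6.84 in Z/Edn2 (0.33 ± 0.130, unadjusted p = 0.0285). In that probe set Z/Edn2 1 lay inside the Control range, and the log2 fold change was 0.22 without Z/Edn2 3. Tpm2, the beta tropomyosin, was at 5.18, 5.47, 5.50 and 5.31 in Control and at 5.62, 5.45, 5.85 and 5.60 in Z/Edn2 by its brightest probe set (0.27 ± 0.110, unadjusted p = 0.0371). Z/Edn2 2 again fell within the Control range, the value became 0.10 on omission of Control 1 together with Z/Edn2 1 and Z/Edn2 3, and the other 3 Tpm2 probe sets had 0.06 to 0.14. Tpm1, the alpha tropomyosin, went from −0.18 ± 0.102 in its brightest probe set to 0.22 ± 0.0860 in its dimmest. The latter was at 3.70, 3.54, 3.61 and 3.60 in Control and at 3.68, 3.79, 3.95 and 3.92 in Z/Edn2 (unadjusted p = 0.0284). Cnn2, calponin 2, had 0.13, Smtn, smoothelin of contractile smooth muscle, 0.09, and Lmod1, the actin nucleator leiomodin, 0.05, none of them past the test.

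Genes that define mature smooth muscle were mostly dim, and their differences did not pass the test. Cnn1, smooth muscle calponin, was at 3.49, 3.53, 3.46 and 3.37 in Control and at 3.68, 3.19, 3.66 and 3.55 in Z/Edn2, with 8.23% of probe sets below its Control level. The Z/Edn2 values lay on both sides of the Control range, and the log2 fold change was 0.06 ± 0.116. Myh11, the smooth muscle myosin heavy chain, was at 4.53, 4.72, 4.56 and 4.61 against 4.54, 4.80, 5.05 and 4.67 (0.16 ± 0.113, unadjusted p = 0.190). Z/Edn2 3 was its highest array, and without it the log2 fold change was 0.07. Des, the intermediate filament desmin of muscle and pericytes, was at 6.34, 6.33, 6.38 and 6.30 against 6.66, 6.40, 6.69 and 6.15 (0.13 ± 0.121). Here Z/Edn2 4 lay under every Control array. The sign turned for Cnn1 (−0.08) and Des (−0.06) when Control 1, Z/Edn2 1 and Z/Edn2 3 were all left out. Mylk, the kinase that activates smooth muscle myosin, had 3 probe sets between −0.04 and 0.21, and Myl9, the regulatory light chain it acts on, had −0.07 ± 0.146. Pln and Casq2, which regulate and bind calcium in the sarcoplasmic reticulum, had 0.16 ± 0.152 and 0.06 ± 0.125 in their brightest probe sets.

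**Figure D3:**
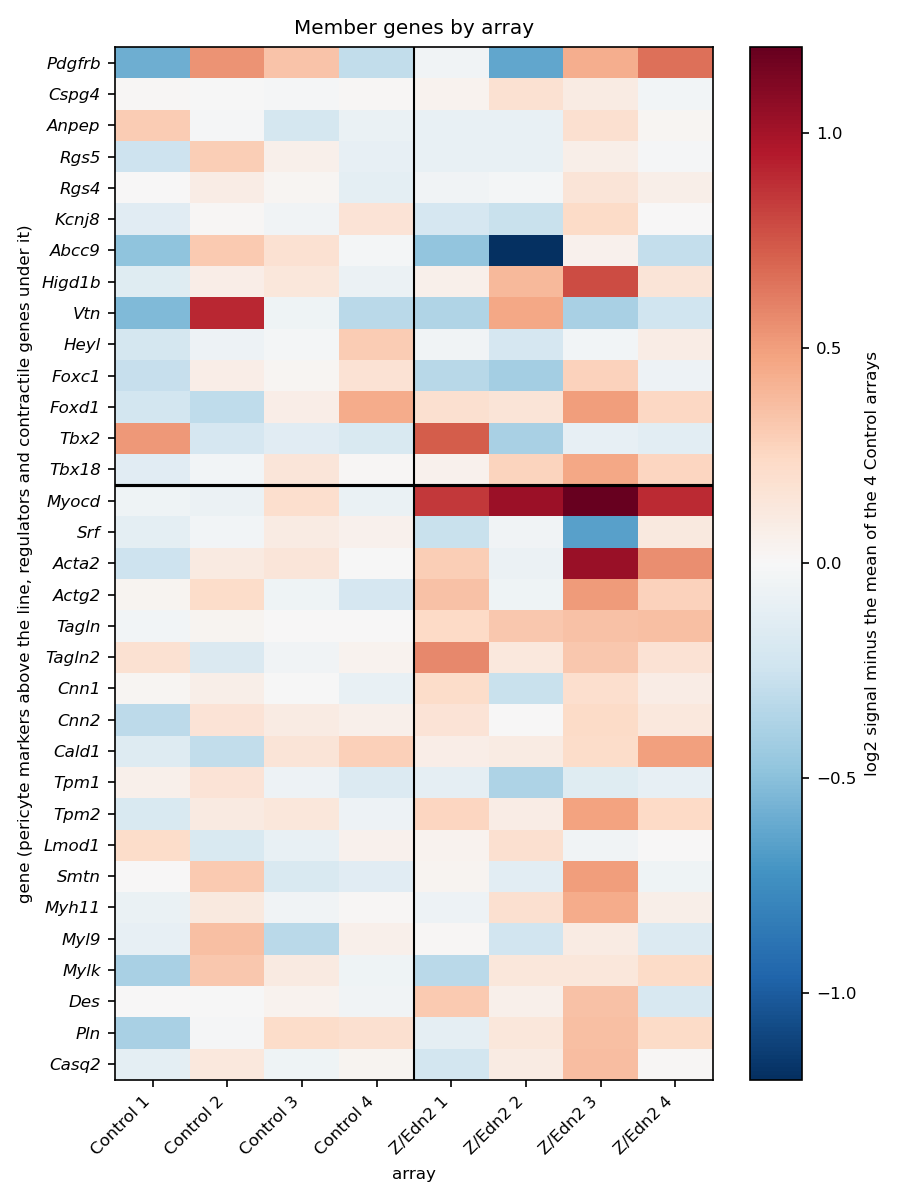
Log2 signal minus the Control mean for the 33 genes (rows, probe set of highest mean) in the 8 arrays (columns), with red above and blue below the Control mean. The Myocd row is red in the 4 Z/Edn2 arrays, the rows of Acta2, Tpm2 and Higd1b are reddest in Z/Edn2 3, and Abcc9 is bluest in Z/Edn2 2.

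Pericyte markers showed no common direction. Of the 14 genes 8 had log2 fold changes above 0, with a median of 0.02, but with array medians made equal 6 of 14 were above 0 and the median was −0.01. Over all genes the share above 0 likewise went from 54.8% (median 0.01) to 45.1% (median −0.01). Among the surface markers, Pdgfrb, the receptor that recruits pericytes, was at 5.87, 7.00, 6.81 and 6.17 in Control and at 6.42, 5.84, 6.90 and 7.13 in Z/Edn2. Both groups spread over more than 1 log2 unit, and the log2 fold change was 0.11 ± 0.316, with omissions of an array or pair between −0.17 and 0.53. The steadier Pdgfrb probe set had −0.02 ± 0.139. Cspg4, the NG2 proteoglycan, was at 6.27, 6.25, 6.24 and 6.27 against 6.30, 6.44, 6.35 and 6.23, a difference of 0.07 ± 0.0758. Anpep, the aminopeptidase CD13, was near the low end at a Control mean of 4.00 and had 0.01 ± 0.121.

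Rgs5, a regulator of G protein signalling that is abundant in pericytes, was read at a high signal, with 92.3% of probe sets below its Control level. It was at 9.52, 10.07, 9.83 and 9.68 in Control and at 9.69, 9.69, 9.85 and 9.76 in Z/Edn2. The Z/Edn2 values lay within the Control range, and the log2 fold change was −0.03 ± 0.117. Its 3 other probe sets ran from −0.30 to 0.21, none past the test. Rgs4, a relative that neurons also express, had 0.04 ± 0.0832 in its brightest probe set and 0.11 and −0.17 in its others.

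Kcnj8 and Abcc9 encode the pore and the regulatory subunit of the ATP-sensitive potassium channel of pericytes and smooth muscle. Kcnj8 was at 5.68, 5.82, 5.77 and 5.98 in Control and at 5.61, 5.55, 6.05 and 5.82 in Z/Edn2 (−0.06 ± 0.122). Its sign turned without Z/Edn2 2 (0.01). Abcc9 was at 6.10, 6.90, 6.76 and 6.56 against 6.11, 5.38, 6.63 and 6.29 by its brightest probe set (−0.48 ± 0.260, unadjusted p = 0.0971). Its low values were in Control 1, Z/Edn2 1 and Z/Edn2 2, and the groups overlapped. The value was −0.24 without Z/Edn2 2, −0.13 without pair 2, and −0.90 on omission of Control 1 together with Z/Edn2 1 and Z/Edn2 3. The dimmest Abcc9 probe set was at 3.78, 4.37, 3.85 and 4.30 against 3.93, 3.28, 3.66 and 3.74 (−0.42 ± 0.176, unadjusted p = 0.0388), while the remaining one had 0.12 ± 0.167, so the probe sets disagreed in sign. The −0.42 was −0.20 without pair 2, and −0.66 without those 3 arrays.

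Higd1b, a mitochondrial membrane protein enriched in pericytes, was at 5.17, 5.40, 5.46 and 5.25 in Control and at 5.38, 5.71, 6.10 and 5.47 in Z/Edn2. The Z/Edn2 value was the higher in 4 of 4 pairs, with the highest in Z/Edn2 3, and the log2 fold change was 0.35 ± 0.154 (unadjusted p = 0.050, limma adjusted p = 1.00, and 0.372 with the block). Without Z/Edn2 3 it was 0.20. Vtn, the adhesive protein vitronectin, had −0.13 ± 0.305 in its brighter probe set and 0.01 in the other. Control values of the brighter one reached from 7.88 to 9.30.

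Transcription factors of the pericyte list were mostly dim. Tbx18, a T-box factor of mural cells, was at 3.02, 3.12, 3.30 and 3.17 in Control and at 3.20, 3.42, 3.62 and 3.40 in Z/Edn2, with 5.14% of probe sets below it (0.26 ± 0.106, unadjusted p = 0.0348). The other Tbx18 probe set, equally dim, had 0.01 ± 0.148, and the mean of both had 0.13. Foxd1 and Foxc1, forkhead factors of stromal and neural crest derived mural precursors, had 0.28 ± 0.163 and −0.13 ± 0.161. Heyl, a target of Notch3 signalling, had −0.04 ± 0.119 in its brightest probe set and 0.13 and 0.06 in its others. Tbx2, a T-box factor that the neural retina itself expresses, was bright (Control mean 9.29) and had 0.03 ± 0.247, with the 2 highest values, 9.81 and 10.02, in Control 1 and Z/Edn2 1.

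Set side by side within each array, the regulators and contractile genes lay further above their Control mean than the pericyte markers did in the Z/Edn2 arrays. The median deviation of the pericyte markers was −0.05, −0.08, 0.17 and 0.02 in Z/Edn2 1 to 4, and that of the regulators and contractile genes 0.08, 0.09, 0.35 and 0.12. In Control the former ran from −0.18 to 0.05 and the latter from −0.08 to 0.10. Both medians were highest in Z/Edn2 3. The contractile minus the pericyte median was 0.10, 0.06, −0.02 and 0.05 in Control and 0.12, 0.17, 0.18 and 0.11 in Z/Edn2, means of 0.05 ± 0.0505 and 0.14 ± 0.0351 (SD, n = 4 each), a difference of 0.10 that was 0.18 without Control 4 and 0.20 without pair 4. The groups did not overlap, but their nearest values, Control 1 and Z/Edn2 4, rounded to 0.10 and 0.11. No test was made of this difference, because the genes were chosen with results of these arrays known.

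**Figure D4:**
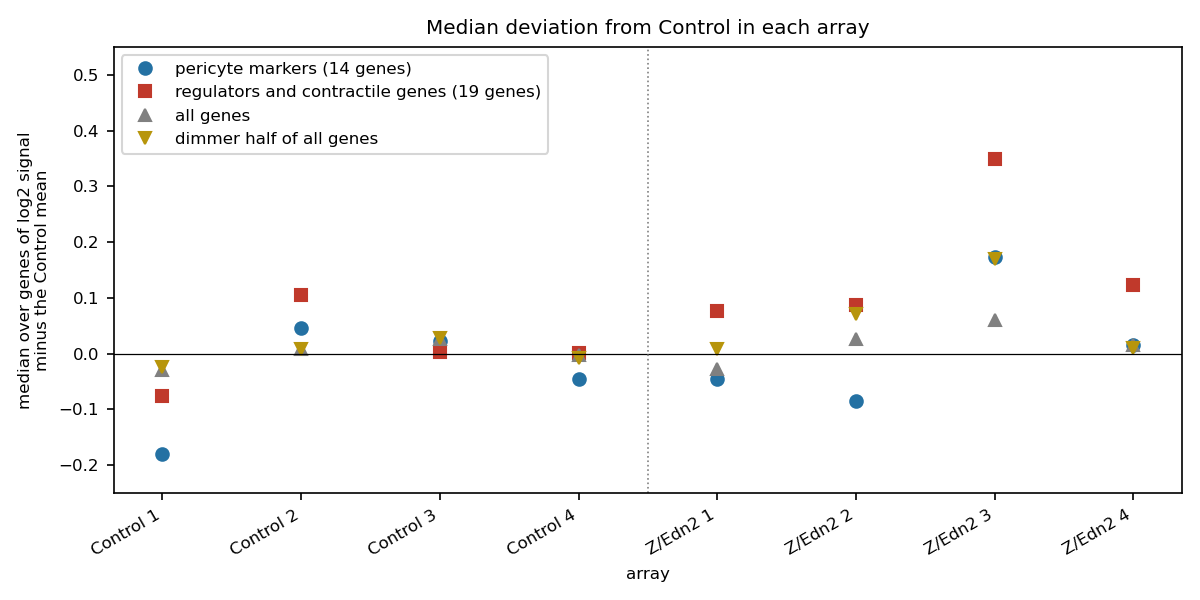
Median over genes of the log2 signal minus the Control mean in each array, for the 14 pericyte markers, the 19 regulators and contractile genes, all genes and the 9096 dimmer genes. The contractile median lies between 0.08 and 0.35 in the 4 Z/Edn2 arrays and the pericyte median between −0.08 and 0.17, with Z/Edn2 3 the highest for each of the 4 series.

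The signals that recruit mural cells and set their tone did not pass either. Of 9 genes of mural recruitment (21 probe sets), 0 passed, and their median log2 fold change was −0.08. By the probe set of highest mean, 5 of the 9 were below 0 and 4 above. The lowest was Tgfbr2 at −0.26 ± 0.135, with 0.14 and 0.12 in its other probe sets. Pdgfb, the ligand of Pdgfrb, had 0.25 ± 0.0988 in its dimmer probe set (unadjusted p = 0.0325) and 0.05 in the other, and S1pr3, a sphingosine 1-phosphate receptor, had 0.32 ± 0.216, 0.26 ± 0.0807 (unadjusted p = 0.0105) and 0.17 ± 0.201 from its brightest to its dimmest probe set. Of 14 listed contraction signalling genes 11 had usable probe sets (31), of which 0 passed, and the median was −0.02. The endothelin A receptor gene Ednra was not analysed here, and Ednrb, the endothelin B receptor, had 0.11 in its brightest probe set. Of 13 further Srf partners and targets (24 probe sets) 0 passed, with a median of 0.04. Csrp1, an actin-linked LIM protein, had the furthest value, 0.72 ± 0.242 (unadjusted p = 0.0144), in the probe set of highest mean.

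Markers of neighbouring cell types had median differences of either sign, and their part in the contractile and pericyte values was not tested. Of 10 endothelial markers 7 had negative log2 fold changes, with a median of −0.21 and 0 of 17 probe sets past the test. Cldn5, a tight junction claudin, had the furthest value, −0.91 (unadjusted p = 0.000524, limma adjusted p = 0.215), and was lower without overlap between groups. Array medians of these markers around the Control mean ran from −0.42 to 0.05 in Z/Edn2 and from −0.08 to 0.13 in Control. Of 5 astrocyte markers 4 were above 0 (median 0.46, 0 of 13 probe sets past the test), and Aldh1l1, Pdgfra and Slc14a1 were higher without overlap between groups. Over all genes, 2.67% were so higher and 1.01% lower. Aqp4, the water channel of glial endfeet, had −0.81 ± 0.529 and was lower in 4 of 4 pairs. The astrocyte list had array medians of 0.30 to 0.58 in Z/Edn2 and −0.13 to 0.11 in Control. The 7 fibroblast markers had a median of 0.13, with array medians of −0.02 to 0.20 in Z/Edn2. Skeletal muscle markers, which could mark eye muscle left on the tissue, were dim, at Control means of 3.73 to 6.42. Their median log2 fold change was 0.09, with 8 of 10 above 0, where 72.2% of the dimmer genes were above 0 with a median of 0.06. Their array medians were −0.12, 0.09, 0.33 and −0.003 in Z/Edn2 1 to 4, against 0.01, 0.07, 0.17 and 0.01 for the dimmer genes. Medians were −0.03 for 8 markers of the retinal pigment epithelium and 0.07 for 6 lens markers, and 0 probe sets of either passed.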

How the data were processed

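The data were 8 Affymetrix arrays of mouse retina, 4 Control and 4 Z/Edn2. Per the labels, total RNA was labelled with biotin (3′ IVT Express kit). The authors deposited log2 values for each probe set, made with RMA per the submitters' processing notes. The RMA version is not given in the sources used here. The authors' deposited comparison also lists log2 fold changes, signed linear fold changes (treated as a score) and the p-value of a test it does not name. The direction was read from its log2 fold changes, which match Z/Edn2 minus Control group means to 4.9e-08.

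Of 45101 probe sets, 64 were controls, 932 had several gene symbols and 9160 none; the 34945 with 1 symbol, for 18193 genes, were tested. Dim probe sets were kept. limma 3.58.1 in R 4.3.3 (lmFit, eBayes, two-sided) was run with Benjamini-Hochberg adjustment over all 34945 and a threshold of 0.05, and was checked on simulated data. Lists of genes are described by counts and by medians over the probe set of highest mean per gene, with no test. The number of arrays limits the precision. After removal of group means, arrays with the same number correlated at 0.80, 0.43, 0.18 and 0.31, each above 0.1, so a fit blocked on replicate number is given too. Of pairs with different numbers, Control 3 with Z/Edn2 4 reached 0.41, above the same-numbered values of 3 and 4. Member values in all arrays are given for probe sets past the threshold with or without the block, those at an unadjusted p under 0.05, and 12 defining genes. The members and lists were chosen with earlier results of these data known. Promoters came from RefSeq, GRCm38.p6, by symbol, for 10 of 14 pericyte and 15 of 19 other genes. Alternatives were trend and robust variance, the block, array weights, equal array medians, a filter on dim probe sets, 1 value per gene, all probe sets but controls, and omission of arrays.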

Additional observations from a re-analysis of the deposited data

Results flagged for a closer look

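In 2 of 66 groups of 4 arrays (33 genes, probe set of highest mean, each group of 4), the highest or lowest array stood far from the others by Dixon's gap test, which chance meets in about 1 of 20 groups. Myocd in Control 3 was at 5.68, against 5.39 to 5.43 in the other Control arrays. Tbx2 in Control 1 was at 9.81, against 9.09 to 9.16. Without Control 3 the Myocd log2 fold change was 1.08 (limma adjusted p = 0.0282).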

How the results depend on the processing

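Pericyte marker probe sets past the threshold numbered 0 under each of the 21 alternatives. The pericyte median moved between −0.08 (without Control 1, Z/Edn2 1 and Z/Edn2 3) and 0.07, and the contractile median between 0.05 and 0.19. Of the contractile and regulator probe sets, 1 passed under 13 alternatives, and 0 when probe sets with a mean under 6.51 were left out, which removed Myocd itself, or in 5 omissions of a single array and in those of pairs 2 and 4 (0 to 1). Over all probe sets, the replicate block gave 76 higher and 18 lower, array weights 49 higher, and the filter on dim probe sets 19 higher and 2 lower. Omitting an array or a same-numbered pair gave 3 to 34 higher and 0 to 7 lower. The contractile minus pericyte median was 0.085 to 0.204 over these omissions; under the block and array weights it was not run, since it is a difference of array values with no fit. The pairing came from the replicate numbers of the labels, and with this block no other member was called. The sign turned for Pdgfrb (−0.173 to 0.532 over omissions, −0.175 without Control 1, Z/Edn2 1 and Z/Edn2 3), Rgs5 (−0.111 to 0.089), Kcnj8 (−0.167 to 0.016), Cnn1 (−0.081) and Des (−0.063), the last 2 without those 3 arrays; the cause was not tested. Signal near the low end limits the dim genes: 43 of the 69 probe sets had a mean under 6.51.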
